A study of Danio rerio with 10 samples.

Results

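Keratin and claudin genes were examined in pooled whole embryos of the zebrafish (Danio rerio) that lacked functional copies of both rbpms2a and rbpms2b, a pair of genes for RNA-binding proteins expressed in the heart, and in their control siblings. A gene counted as a keratin if its symbol in the deposited table began with krt and a digit, or was cyt1 or cyt1l, and as a claudin if it began with cldn, with a biotype of protein_coding and krtcap genes left out. This gave 49 genes of the 32266 in the table, 18 keratins and 31 claudins. Of these, 42 had enough counts to be tested (16 keratins and 26 claudins), as did 20802 genes in all. The 7 that were not tested were krt93, krt95, cldn7a, cldn10a, cldn10l2, cldn17 and cldnd.

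The mutant group is labelled only as mutant, and the series' design text gives its genotype as rbpms2a-/-; rbpms2b-/- and says that its embryos were picked out by eye. The control group carried the genotype label wt and is described as siblings, so it can hold carriers of the mutations. Both groups were collected at 33 hours post fertilization with 10 embryos to a pool, and each had 5 libraries of polyadenylated RNA, numbered 1, 2, 3, 4 and 6. No label says what a replicate number stands for, so p-values measure the spread between these pools. Where a fit below takes the replicate number into account, they measure only the spread that is left.

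Keratins are the intermediate filament proteins of epithelial cells. They assemble as pairs of a type I and a type II protein, and the filaments are anchored at desmosomes. Claudins are membrane proteins that form the strands of tight junctions, and the mixture of claudins in a cell layer sets which ions and solutes pass between its cells. The skin of a zebrafish embryo has an outer periderm, rich in keratins, over a basal layer marked by the transcription factor tp63, with ionocytes set among them. Because RNA came from whole embryos, fewer cells of a type and less RNA per cell cannot be told apart in any value below.

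Libraries held 21.5 to 35.99 M counts, where M stands for 1e6. The targeted gene rbpms2a was at 5.25 ± 1.09 CPM (counts per 1e6 counts of a library; SD, n = 5) for control siblings against 3.17 ± 0.585 CPM for mutants (SD, n = 5), with ranges that did not overlap, whereas rbpms2b was at 14.2 ± 3.71 and 15.4 ± 4.63 CPM (SD, n = 5 each). Libraries that shared a replicate number deviated together from their group means (correlations over all tested genes of 0.543 to 0.598 in 5 of 5 pairs), so the number was also used as a block in a second fit, called the blocked fit. Between numbers 2 and 3 the correlations were nearly as high, at 0.508 and 0.497, so these 2 numbers were less clearly separate. In the unblocked edgeR fit 1 of 20802 genes (0.00481%) passed an adjusted p of 0.05, myh6, an atrial myosin heavy chain gene, and in the blocked fit 53 did (0.255%).

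None of the 16 keratins and none of the 26 claudins passed the adjusted threshold of edgeR in either fit, and DESeq2 and limma-trend called none of them either. Without the block, 0 keratins and 2 claudins (cldnj and cldnk) had an unadjusted edgeR p under 0.05, against 1.95% of all genes. With the block, 2 keratins (krt97 and krt92, 12.5%) and 11 claudins (42.3%) did, against 10.5% of all genes. Of the 11 claudins, 10 had the higher level in mutants (cldni, cldne, cldnb, cldn7b, cldnh, cldn5b, cldnf, cldn15la, cldnj and cldnk, 38.5% of those tested, against 5.67% of all genes) and 1, cldn5a, the lower (3.85%, against 4.84%). The differences were small: the median log2 fold change of mutants over controls in the unblocked fit was 0.069 for keratins, 0.097 for claudins and 0.0022 for all tested genes. Without mutant 2 the medians were 0.0062 for keratins and 0.050 for claudins. The ranges of the groups overlapped for all 42 tested members, while 0.466% of all genes had ranges that did not overlap.

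In the unblocked fit, 12 of 16 keratins (75%) and 16 of 26 claudins (61.5%) had a log2 fold change above 0, against 50.7% of all genes. The blocked fit gave the same counts, 12 and 16, against 50.0% of all genes. In pairs 1, 2, 3, 4 and 6 the claudins higher in the mutant numbered 19, 17, 12, 16 and 15 of 26, with median log2 ratios of 0.18, 0.21, -0.0055, 0.036 and 0.058, so pair 3 had more claudins lower than higher in the mutant. The mutant library had the higher level in 5 of 5 pairs for 2 keratins, krt97 and krt92 (12.5%), and for 5 claudins, cldne, cldnh, cldn5b, cldnf and cldnk (19.2%), against 5.62% of all genes. No keratin or claudin was lower in 5 of 5 pairs. The share of all genes lower in 5 of 5 pairs is not given here, so that count of 0 has no background beside it.

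**Figure D1:**
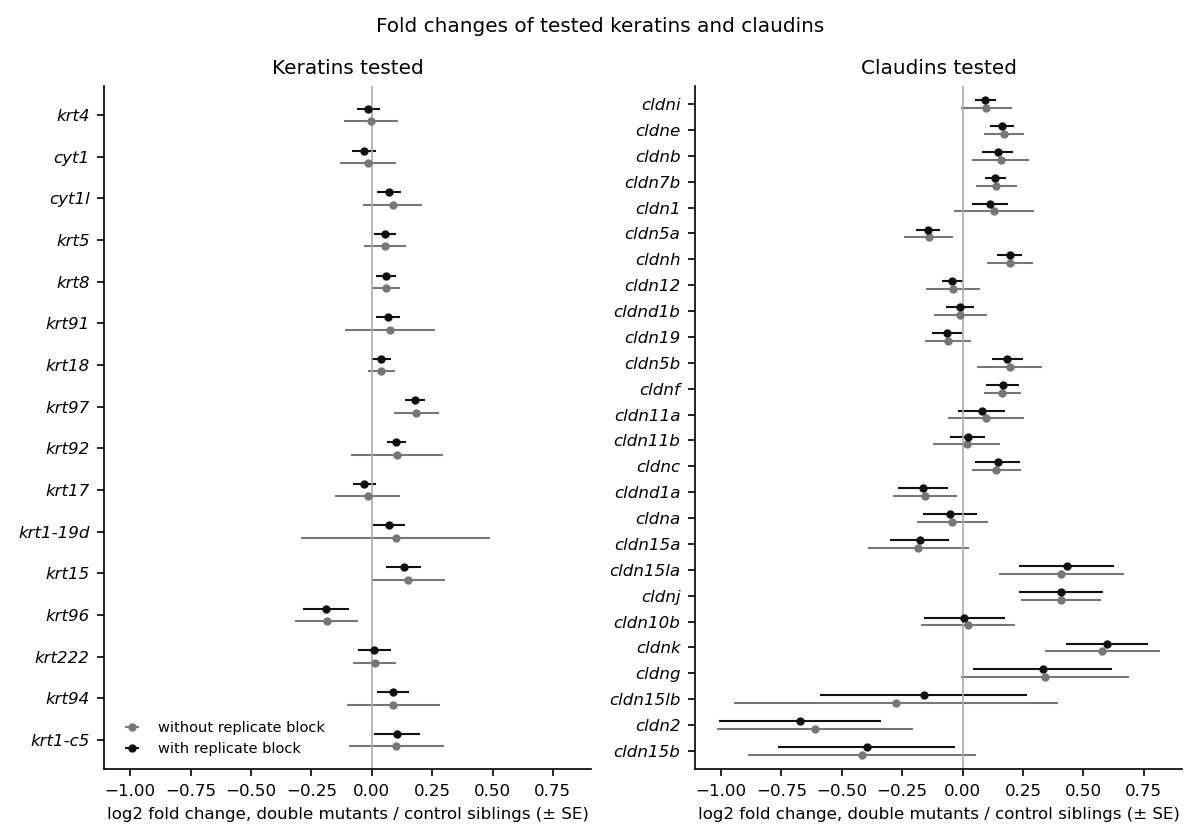
Log2 fold change (x axis, double mutants over control siblings, ± SE) of the 16 tested keratins (left) and 26 tested claudins (right), ordered from the highest to the lowest mean FPKM, without the replicate block (grey) and with it (black). The widest errors belong to the claudins of lowest level, at the bottom right, and cldnk has the highest claudin estimate (0.58 without the block).

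Levels are compared between genes per length, as FPKM (fragments scaled to gene length and library size). The keratins spanned a very wide range. Krt4, a type II keratin of the periderm, was the 7th most abundant gene of the table, with a mean of 6257 FPKM over the 10 libraries. Cyt1 and cyt1l, a neighbouring pair of type I keratins of the same layer, followed with 4569 and 4063 FPKM and were the 10th and the 13th most abundant genes. Together these 3 genes made up between 84.2 and 87.9% of the summed keratin FPKM of a library. Krt5, another type II keratin, came next with 723 FPKM, followed by krt8 with 494, krt91 with 420.4, krt18 with 232 and krt97 with 130.0 FPKM. Krt92 was at 93.4 and krt17 at 79.6 FPKM. The other 8 keratins lay at 17.5 FPKM (krt1-19d) or lower.

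Keratins together took 2.87 ± 0.287% of all counts in a control library and 2.93 ± 0.489% in a mutant one (SD, n = 5 each). Control libraries ran from 2.55 to 3.29% and mutant libraries from 2.40 to 3.58%, so the keratin total varied more within each group than between the group means. Claudins took 0.0775 ± 0.00444% of the counts of control siblings and 0.0832 ± 0.00663% of those of mutants (SD, n = 5 each). The summed FPKM of the 3 type II keratins krt4, krt5 and krt8 over that of 7 type I keratins (cyt1, cyt1l, krt15, krt17, krt18, krt1-19d and krt1-c5) was 0.843 ± 0.0139 for control siblings and 0.826 ± 0.0246 for mutants (SD, n = 5 each). This ratio ran from 0.795 to 0.863 over the 10 libraries. The other keratins, among them krt91, krt97 and krt92 with means of 420.4, 130.0 and 93.4 FPKM, were in neither sum. The ratio depends on that choice of genes. The type II sum itself ran from 6303 to 9039 FPKM and the type I sum from 7306 to 11369.9 FPKM.

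**Figure D2:**
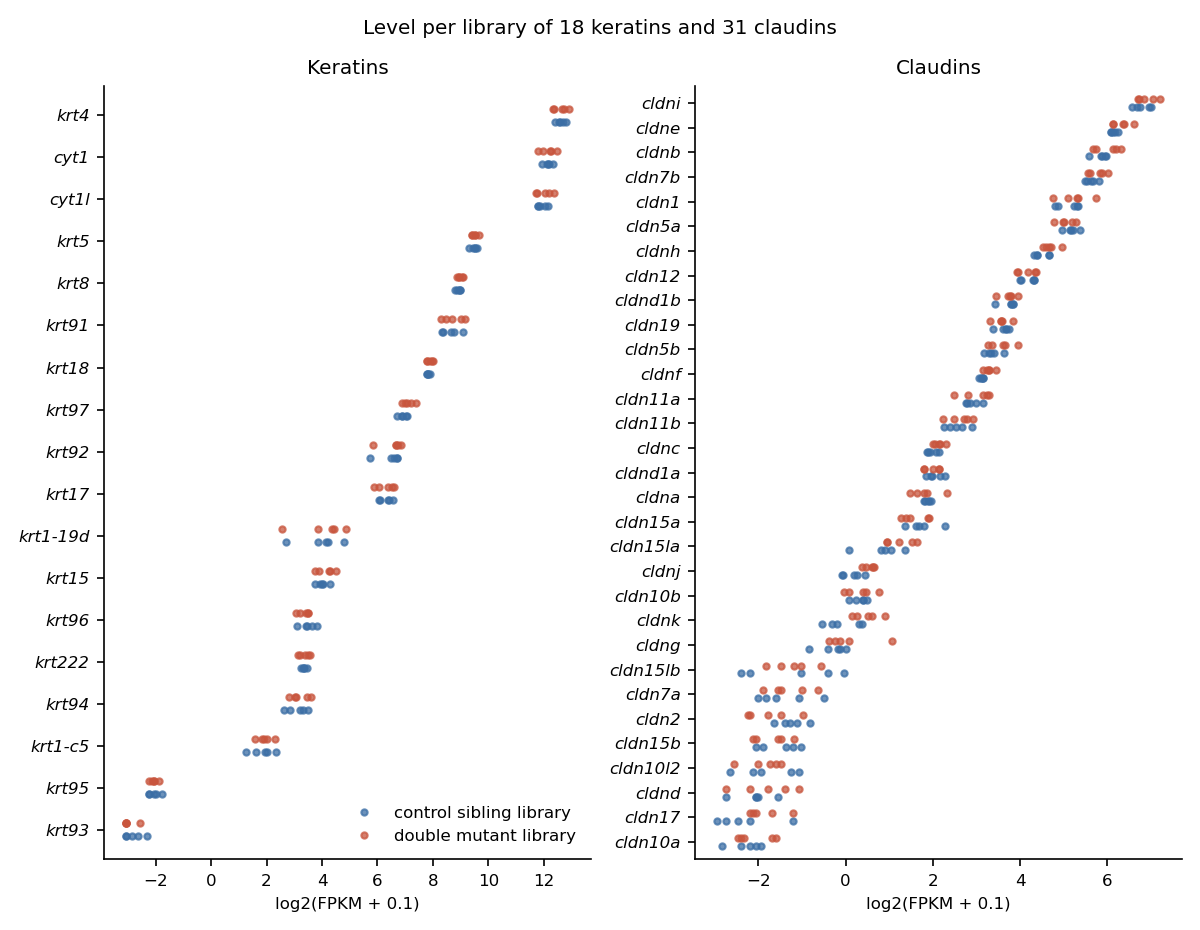
Level of each keratin (left) and claudin (right) as log2(FPKM + 0.1), the deposited scale, with 1 point per library, blue for control siblings and red for double mutants. Krt4, cyt1 and cyt1l stand above all other keratins, cldni is the highest claudin, and the blue and red ranges overlap for all 42 tested genes.

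The abundant periderm keratins showed no difference between genotypes beyond the spread of the libraries. Krt4 was at 13818, 16262, 14912, 12519.9 and 14196 CPM in controls 1, 2, 3, 4 and 6 and at 14624, 17582, 15458, 11737 and 12134 CPM in the mutants of the same numbers. Number 2 was the highest of both groups and number 4 the lowest, and the groups overlapped over most of their range. The krt4 estimate (log2, mutants over controls) was -0.0035 with an SE of 0.112 (edgeR p before adjustment 0.976), or -0.015 with an SE of 0.0479 in the blocked fit. Cyt1 was at 6161, 7012, 6190.3, 5567 and 5890.4 CPM among the controls and 6249, 7666, 6499, 4819 and 5238 CPM among the mutants, for an estimate of -0.016 with an SE of 0.115. For cyt1l the values were 4509, 5486, 5042, 4419 and 4351 CPM among the controls and 5024, 6392, 5600.3, 4131 and 4131 CPM among the mutants, for an estimate of 0.087 with an SE of 0.122. Both genes again had their highest library in mutant 2, and their control values lay inside the range of the mutants. Expected counts of these genes were not whole (more than 1e-06 from a whole number) in 9 or 10 of the 10 libraries, so reads had been divided between genes and the level of each is uncertain. The sum of cyt1 and cyt1l was 10925 ± 998 CPM among controls against 11150.0 ± 2085 CPM among mutants (SD, n = 5 each).

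In these keratins the sign of the difference varied between replicate numbers. In the order of numbers 1, 2, 3, 4 and 6, the log2 ratio of mutant over control was 0.082, 0.11, 0.052, -0.093 and -0.23 for krt4 and 0.021, 0.13, 0.070, -0.21 and -0.17 for cyt1. For cyt1l it was 0.16, 0.22, 0.15, -0.10 and -0.075, and for krt5 it was 0.11, 0.18, 0.11, -0.057 and -0.073. All 4 genes were thus higher in the mutant of numbers 1, 2 and 3 and lower in that of numbers 4 and 6, a pattern seen after the values were known. Each number holds 1 library per group, so the pattern cannot be told apart from the spread of single libraries. Krt8, krt92 and krt97 were among the keratins that were higher in the mutants of numbers 4 and 6. Over all 16 tested keratins the median log2 ratio was 0.075, 0.14, 0.073, -0.075 and 0.053 in the same order, and 12, 14, 11, 5 and 10 of them were higher in the mutant. The share of all genes that were higher in the mutant was 49.8 to 51.0% in every pair.

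Krt5, krt17 and krt15 did not differ beyond their spread either. Krt5 was at 1165 ± 104 CPM for controls against 1211 ± 129.5 CPM for mutants (SD, n = 5 each), for an estimate of 0.056 with an SE of 0.0863. Krt17, a type I keratin next to cyt1 in the gene order, was at 104 ± 13.8 CPM and 103 ± 21.05 CPM (SD, n = 5 each), and its log2 estimate was -0.017 with an SE of 0.136. For krt15 the levels were 21.9 ± 3.25 CPM and 24.3 ± 5.42 CPM (SD, n = 5 each), for an estimate of 0.15 with an SE of 0.151 and mutants higher in 2 of 5 pairs. Each of these differences was smaller than the SD of the mutant group.

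Krt8 and krt18 form the keratin pair of simple, single-layered epithelia in vertebrates. They were the steadiest members of the keratin family. Krt8 was at 999, 1006, 984, 976 and 939.9 CPM among the controls and 979.5, 1106, 1073, 989 and 968 CPM among the mutants. Krt18 was at 343, 348, 365, 346 and 341 CPM among the controls and 333, 364, 384, 338 and 373 CPM among the mutants. The number with the highest mean exceeded the number with the lowest 1.11-fold for krt8 and 1.11-fold for krt18, the smallest ratios of the tested keratins. Their log2 fold changes were 0.061 with an SE of 0.0578 and 0.040 with an SE of 0.0574, at edgeR p-values before adjustment of 0.313 and 0.496.

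Krt97 came closest to a call among the keratins. Controls 1, 2, 3, 4 and 6 were at 155, 176, 172, 141 and 161 CPM and the mutants of those numbers at 174, 219.6, 193, 156 and 171 CPM. Every mutant library lay above its own control, while the groups overlapped between 156 and 176 CPM. The log2 estimate was 0.18 with an SE of 0.0934, at an edgeR p before adjustment of 0.0722. The exact two-sided permutation test over 252 assignments of the libraries, which ignores the replicate numbers, gave p = 0.143. With the block it was 0.18 with an SE of 0.0408, at edgeR p-values of 0.000410 before and 0.0836 after adjustment over all genes. Without mutant 2 the unblocked estimate was 0.10. Its expected counts were not whole in any library. Krt96, its neighbour in the gene order, had the opposite sign, at 14.4 ± 2.48 CPM and 12.7 ± 1.74 CPM (SD, n = 5 each), for an estimate of -0.19 with an SE of 0.132, at an edgeR p before adjustment of 0.181, and it is named only for that contrast, after its value was seen.

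Keratins, like the tested genes as a whole, varied with the replicate number far more than with genotype. The edgeR test of the replicate number, with genotype kept in the model, called 12 of 16 keratins (75%) and 14 of 26 claudins (53.8%), against 43.3% of all genes. The keratins not called were krt8, krt18, krt96 and krt222. The mean of a number's mutant and control library was highest in number 2 for 10 of 16 keratins and lowest in number 4 for 7. The shares of all genes with these extremes are not given here, so these counts have no background beside them. The ratio of the highest to the lowest number had a median of 1.41 for keratins, 1.37 for claudins and 1.37 for all tested genes.

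Among the tested keratins the widest spread between numbers belonged to krt1-19d, a type I keratin that is named after its values were seen. Its level was 32.2, 22.0, 16.9, 7.79 and 21.5 CPM in controls 1, 2, 3, 4 and 6 and 33.8, 24.2, 16.9, 6.86 and 25.8 CPM in the mutants of those numbers. Both libraries of number 1 were high, both of number 4 were low, and each mutant lay closer to its own control than numbers 1 and 4 lay to each other. The mean of number 1 was 4.50 times that of number 4 (adjusted edgeR p 3.07e-09 for the replicate number), whereas the log2 fold change between genotypes was 0.10 with an SE of 0.390. Counts of krt1-19d were whole in all 10 libraries.

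Neighbours of krt1-19d moved in other ways. In the gene order of the assembly GRCz12tu, krt1-19d, krt92, cyt1l, cyt1, krt17 and krt91 lie in a row, with 1 gene between the first and the second. Krt92 was low in both libraries of number 6, at 68.2 and 72.4 CPM, and between 114 and 144 CPM in the other 8. Every mutant was above its own control, by 0.036 to 0.17 log2 units, and the estimate was 0.10 with an SE of 0.190, or 0.10 with an SE of 0.0373 with the block, at edgeR p-values of 0.0138 before and 0.326 after adjustment. Krt91 was instead highest in number 6, at 782 and 805 CPM, and between 430.1 and 725 CPM elsewhere, and its estimate was 0.077 with an SE of 0.187. Averaged over genotypes, cyt1 was at 6205, 7339, 6345, 5193 and 5564 CPM in numbers 1, 2, 3, 4 and 6, and krt17 at 113, 125, 109, 83.9 and 88.5 CPM, so that both were highest in number 2 and lowest in number 4. The adjusted edgeR p for the replicate number was 3.397e-08 for krt92 and 9.999e-07 for krt91. Both had counts that were not whole in any library, and their reads may have been divided with other copies, which was not tested.

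Another row of neighbours held krt94, krt15 and the barely detected krt93. Krt94 was at 14.6, 12.9, 11.1, 17.9 and 20.3 CPM and krt15 at 18.001, 24.1, 20.02, 26.4 and 27.1 CPM in numbers 1, 2, 3, 4 and 6, averaged over genotypes, and these 2 genes were highest in number 6. Krt1-c5, which lies near no other keratin, was highest in number 6 as well, at 6.79 CPM, and lowest in number 3, at 3.53 CPM. Krt94 and krt1-c5 were chosen for their place in the gene order after the values were seen.

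**Figure D3:**
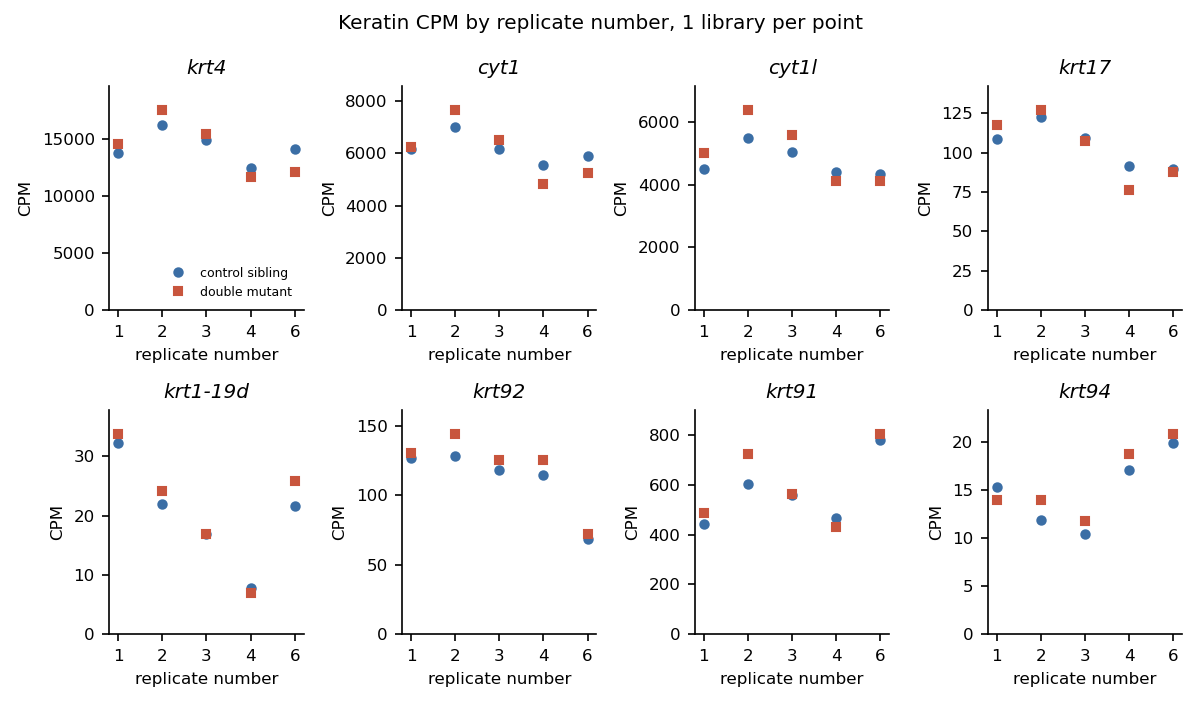
CPM (y axis, from 0) of 8 keratins by replicate number (x axis), with 1 control library (blue circle) and 1 mutant library (red square) at each number. Circle and square lie close together at most numbers, krt1-19d falls to 7.79 and 6.86 CPM at number 4, and krt92 is low and krt91 high at number 6.

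Markers of the embryo's tissues also varied with the number, and their part in the keratin and claudin values was not tested. Summed over 10 periderm markers that are neither keratins nor claudins, all of them detected, the level averaged over genotypes was 3352, 4549, 3820.1, 2752 and 2699 FPKM in numbers 1, 2, 3, 4 and 6. Most of that sum came from icn and icn2 (1895 and 653 FPKM on average). Neither was called as differing between numbers (adjusted edgeR p for the replicate number 0.168 and 0.300). The keratin sum was 17140.2, 20255, 18133, 14572 and 15549 FPKM and the claudin sum 506, 553, 519.9, 472 and 453 FPKM in the same order, so numbers 2, 3 and 1 led, in that order, in these 3 sums. The 10 basal epidermis markers other than cldni had sums of 555, 763, 690.2, 634 and 793 FPKM, highest in number 6 and lowest in number 1. Most of that sum came from 1 gene, krtt1c19e (539 FPKM on average), itself a keratin by its name in GRCz12tu. The 7 hatching gland markers, all detected and with ctslb under separate gene entries, summed to 4409.9, 6116, 5472, 4149.5 and 3365 FPKM, highest in number 2 again. The summed level of the 9 notochord markers, all detected, was instead highest in numbers 4 and 6, at 310.3, 241, 269.8, 561 and 515 FPKM. The largest part came from col2a1a (177 FPKM on average). Of the 9, 6 differed between numbers at an adjusted edgeR p under 0.05, while shha, shhb and cav1 did not (adjusted edgeR p 0.080, 0.602 and 0.280). The same test called 6 of the 10 periderm, 7 of the 10 basal epidermis and 6 of the 7 hatching gland markers, against 43.3% of all genes. Groups overlapped in each of these marker sums. The periderm sum ran from 2544 to 4573 FPKM among controls and from 2207 to 4524 FPKM among mutants. For the hatching gland the ranges were 3328 to 5645 and 3402 to 6588 FPKM, and for the notochord 238 to 544 and 244 to 578 FPKM.

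**Figure D4:**
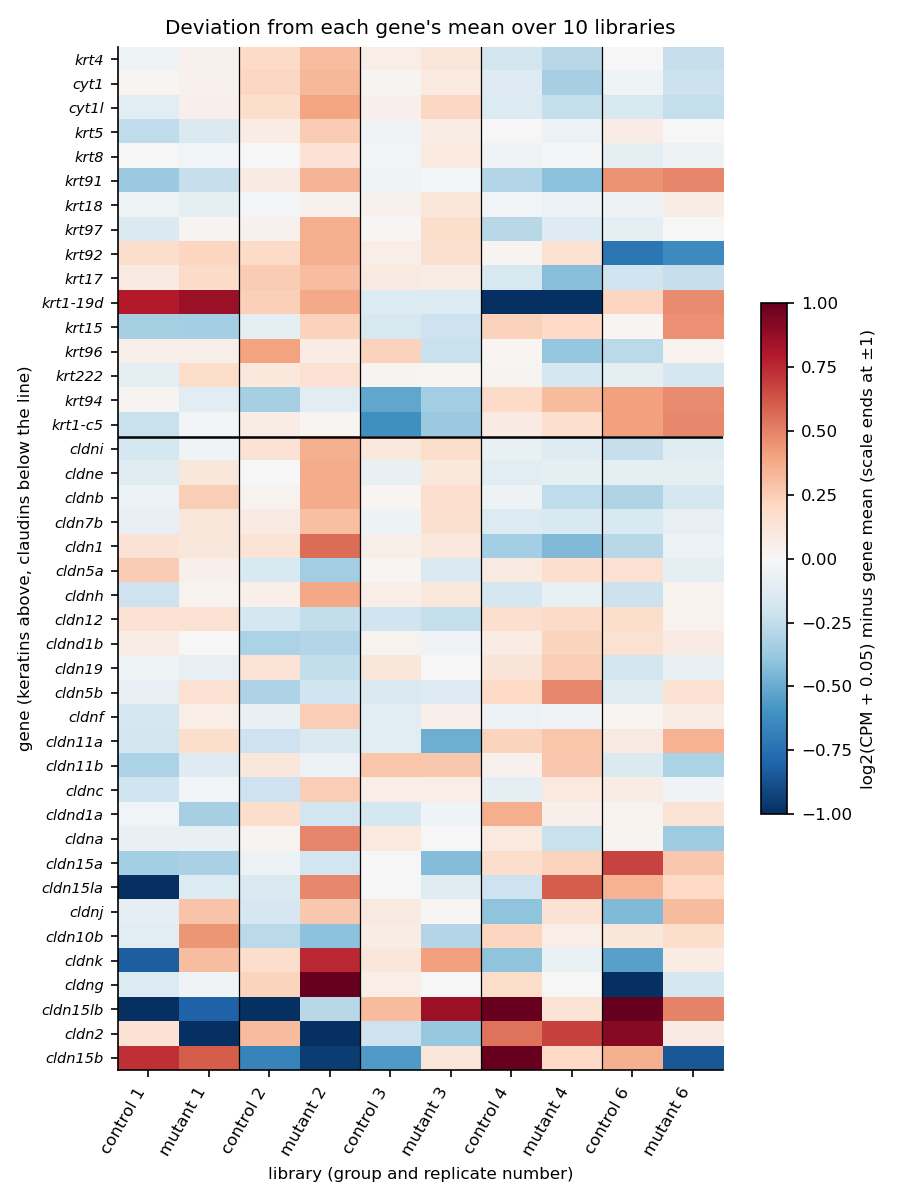
Deviation of each tested keratin (above the line) and claudin (below) from its own mean over the 10 libraries, as log2(CPM + 0.05), with control and mutant of a number side by side and the scale ending at 1 on either side of 0. Krt4, cyt1 and cyt1l are above their mean in both libraries of number 2 and below it in both of number 4, and krt1-19d is far above its mean in number 1 and far below it in number 4.

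Claudin RNA was far less abundant. Cldni had the highest mean, 116 FPKM, followed by cldne with 75.6, cldnb with 61.6, cldn7b with 52.4 and cldn1 with 36.8 FPKM. These 5 genes made up between 63.0 and 74.1% of the summed claudin FPKM of a library. Cldn5a was at 34.7, cldnh at 24.1, cldn12 at 18.03 and cldnd1b at 13.3 FPKM, the last coding for a claudin-domain protein rather than a classical claudin. Cldn19, cldn5b and cldnf lay between 9.12 and 12.1 FPKM, and the remaining 19 claudins at 7.74 FPKM (cldn11a) or lower.

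Cldne, a claudin of the periderm, was at 131, 143, 136, 132 and 134 CPM among the controls and 155, 185, 154, 134 and 134 CPM among the mutants. The mutants of numbers 1, 2 and 3 lay above all controls, and those of numbers 4 and 6 lay among them. Its log2 estimate was 0.17 with an SE of 0.0839, with an edgeR p before adjustment of 0.0625 and an exact permutation p-value of 0.0794. With the block it was 0.16 with an SE of 0.0487, at edgeR p-values of 0.00374 before and 0.207 after adjustment. Without mutant 2 the unblocked estimate was 0.085.

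Cldnh, named cldn3c in GRCz12tu, was at 38.1, 45.7, 46.0, 38.9 and 37.8 CPM among the controls and 45.2, 57.4, 47.2, 41.8 and 45.1 CPM among the mutants. All 5 mutants were above their own control, by as little as 0.039 log2 units in number 3. The log2 estimate was 0.20 with an SE of 0.0950, with an exact permutation p-value of 0.0873, and the blocked estimate of 0.19 with an SE of 0.0510 had an adjusted edgeR p of 0.139. Without mutant 2 the unblocked estimate was 0.11. Cldnf lies directly next to cldne in a row of 4 claudins, cldnj, cldne, cldnf and cldna. It was at 13.0, 14.0, 13.7, 14.2 and 14.96 CPM among the controls and 15.5, 17.6, 15.3, 14.4 and 15.6 CPM among the mutants, higher in 5 of 5 pairs. Its log2 estimate was 0.17 with an SE of 0.0775, with an exact permutation p-value of 0.0159 and an edgeR p before adjustment of 0.0539. With the block the edgeR p-values were 0.0249 before and 0.388 after adjustment.

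Cldnb, a claudin of the skin and of the migrating lateral line, was at 53.8 ± 4.78 CPM for controls against 60.004 ± 11.1 CPM for mutants (SD, n = 5 each). The mutant was higher in 4 of 5 pairs and lower in number 4, where the log2 ratio was -0.21. Cldn7b, whose mammalian counterpart binds the adhesion protein EpCAM, was at 89.1 ± 5.90 CPM and 98.2 ± 12.5 CPM (SD, n = 5 each), with number 4 again the exception. Cldni was at 181 ± 20.9 CPM and 193 ± 29.6 CPM (SD, n = 5 each), and cldn1, a claudin that the skin barrier of mice requires, at 17.2 ± 2.71 CPM and 18.8 ± 4.73 CPM (SD, n = 5 each). The log2 fold changes of cldnb, cldn7b, cldni and cldn1 were 0.16, 0.14, 0.10 and 0.13, at edgeR p-values before adjustment of 0.209, 0.130, 0.376 and 0.451. Without mutant 2 these estimates were 0.070, 0.071, 0.0059 and -0.025. With the block the first 3 had unadjusted edgeR p-values of 0.0372, 0.00632 and 0.0414.

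Members were called in the blocked fit when number 4 was left out. EdgeR then called krt97 (6.25% of tested keratins) and 5 claudins, cldnb, cldn5a, cldn7b, cldnh and cldne (19.2%), while 1.76% of all genes were called. In number 4 the log2 ratios of cldnb, cldn7b and cldn5a (-0.21, -0.015 and 0.078) had the sign opposite to their estimates. Leaving that number out was therefore bound to enlarge these 3 estimates. The ratios of krt97, cldnh and cldne in number 4 (0.15, 0.10 and 0.015) had the same sign as their estimates. They lay below the blocked estimates over all numbers (0.18, 0.19 and 0.16), so leaving number 4 out was bound to enlarge these too. The log2 estimates in that setting were 0.23 for cldnb (SE 0.0469, adjusted edgeR p 0.0203), -0.20 for cldn5a (adjusted edgeR p 0.0303) and 0.19 for krt97 (adjusted edgeR p 0.0321). Those of cldnh, cldne and cldn7b were 0.22, 0.20 and 0.17, with adjusted edgeR p-values of 0.0404, 0.0404 and 0.0348. Leaving out number 1, 2, 3 or 6 instead gave 0 keratins and 0 claudins.

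**Figure D5:**
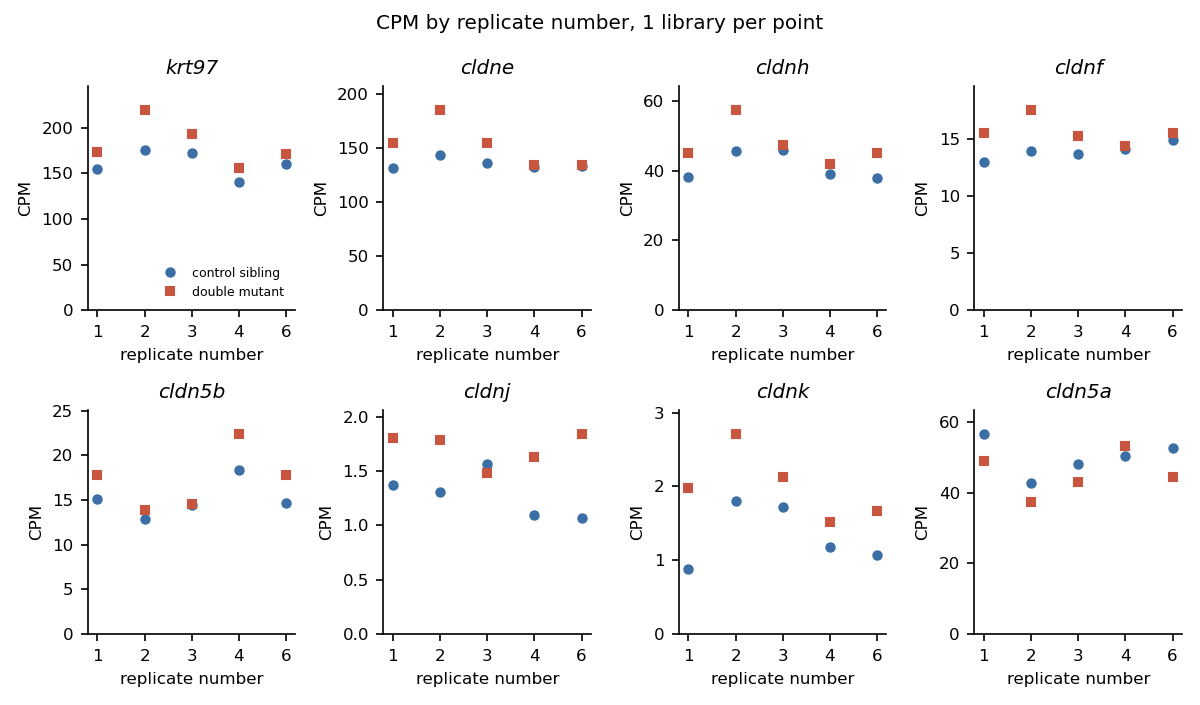
CPM (y axis, from 0) of krt97 and 7 claudins by replicate number (x axis), control libraries as blue circles and mutant libraries as red squares. The square lies above the circle at every number for krt97, cldne, cldnh, cldnf, cldn5b and cldnk, at 4 of 5 numbers for cldnj and at 1 of 5 for cldn5a.

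Claudins that mark other tissues were also measured. Cldn5b is a claudin of endothelial cells. Its level was 15.1, 12.9, 14.5, 18.4 and 14.7 CPM among the controls and 17.8, 13.9, 14.6, 22.4 and 17.8 CPM among the mutants, higher in 5 of 5 pairs by 0.012 to 0.28 log2 units. The log2 estimate was 0.19 with an SE of 0.135, with an edgeR p before adjustment of 0.173, and 0.0108 with the block. Without mutant 4 the estimate was 0.084. Of the 8 endothelial markers other than cldn5b, all detected, 5 had an estimate above 0, with a median of 0.0030, and they summed to 64.5 to 75.4 FPKM among controls and 68.5 to 74.98 FPKM among mutants.

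Cldn5a, a claudin of the lining of the brain ventricles in zebrafish embryos, was the only claudin lower in mutants at an unadjusted p under 0.05 in the blocked fit. Controls were at 56.7, 42.7, 48.2, 50.4 and 52.7 CPM and mutants at 49.1, 37.4, 43.0, 53.2 and 44.6 CPM, with the mutant lower in 4 of 5 pairs and higher in number 4. Its log2 estimate was -0.14 with an SE of 0.1004, and -0.14 with an SE of 0.0513 with the block (unadjusted edgeR p 0.0125, adjusted p 0.316). Cldn12, cldn19 and cldnd1b had estimates of -0.041 with an SE of 0.111, -0.060 with an SE of 0.0951 and -0.0090 with an SE of 0.110, each smaller than its SE. Cldn19 was at 45.5 ± 4.27 CPM for controls against 43.7 ± 5.61 CPM for mutants (SD, n = 5 each).

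The largest fold changes among the named claudins belonged to genes of low level. Cldnk, a claudin of myelinating glia in zebrafish, was at 0.877, 1.80, 1.72, 1.19 and 1.07 CPM among the controls and 1.98, 2.71, 2.13, 1.51 and 1.67 CPM among the mutants. The mutant was higher in 5 of 5 pairs, and control 1 was the lowest library of all. The log2 estimate was 0.58 with an SE of 0.238, with an edgeR p before adjustment of 0.0313 and an exact permutation p-value of 0.0556, and the blocked estimate of 0.60 with an SE of 0.170 had an adjusted edgeR p of 0.184. All 10 glial markers, cldnk and cldn19 included, had some count, but olig1 and mbpa were too low to be tested. Their means were 0.0055 and 0.028 CPM among controls and 0.042 and 0.062 CPM among mutants. Without cldnk and cldn19, 2 of the 6 markers that were tested had an estimate above 0. The sum without cldnk and cldn19 was 410.1 to 659 FPKM among controls and 408 to 689 FPKM among mutants, most of it from fabp7a (414 FPKM on average).

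Cldnj is needed for the formation of otoliths in the zebrafish ear. It was at 1.37, 1.303, 1.57, 1.101 and 1.07 CPM among the controls and 1.81, 1.78, 1.48, 1.63 and 1.84 CPM among the mutants, so the groups overlapped only between mutant 3 and control 3. The log2 estimate was 0.41 with an SE of 0.166, with an edgeR p before adjustment of 0.0298, which adjustment raised to 1.00, and the exact permutation test gave p = 0.0159. At most 65 counts stood behind a cldnj value and 85 behind a cldnk value. The 12 markers of the ear and lateral line, all detected, summed to 106 to 116 FPKM among controls and 108 to 122 FPKM among mutants.

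Cldn15la, a claudin of the gut lining, was at 1.31 ± 0.421 CPM for controls against 1.71 ± 0.416 CPM for mutants (SD, n = 5 each), for an estimate of 0.41 with an SE of 0.258. The mutant was higher in 3 of 5 pairs and control 1, at 0.685 CPM, was lowest. The remaining tested claudins had log2 fold changes from -0.61 (cldn2) to 0.34 (cldng), both at or under 1.15 CPM in every library. Among the 7 members left untested, krt93 and krt95 had at most 2 counts in a library and were at 0 in 6 of 10 libraries each. A count of 0 allows up to 3 counts, or 0.139 CPM in the smallest library, which covers counting error only.

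Neighbouring claudins differed widely in level. In the row of cldnj, cldne, cldnf and cldna, the mean levels were 1.19, 75.6, 9.12 and 3.54 FPKM. A second row held cldnh, cldnc, cldnb and cldnd, with 1 gene between the last pair, at 24.1, 4.07, 61.6 and 0.174 FPKM. Of the 49 members, 49 could be placed in GRCz12tu by symbol or synonym, and 25 lay in 7 rows with at most 10 genes between members. Cldnc, chosen for its place next to cldnh and cldnb after its values were seen, was at 6.46 ± 0.618 CPM for controls against 7.10 ± 0.570 CPM for mutants (SD, n = 5 each), for an estimate of 0.14 with an SE of 0.102.

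Companion genes of both families had 0 calls in either edgeR fit. Of 27 tested partners of claudins at tight junctions (among them occludin, scaffold and junctional adhesion molecule genes), 4 were higher and 1 lower at an unadjusted edgeR p under 0.05 in the blocked fit (14.8% higher, against 5.67% of all genes). Without the block 1 was, jam2b, a junctional adhesion molecule gene, with a log2 estimate of 0.21. Over all genes, 1.95% had an unadjusted edgeR p under 0.05 without the block, and 4.84% were lower at that p in the blocked fit. Of 18 genes of the desmosome and the adherens junction, 6 were higher and 0 lower in the blocked fit (33.3% higher). Without the block 1 was, pkp2, a plakophilin gene that the heart also uses, with an estimate of 0.31. Of 15 regulators of epidermal genes, 7 were higher and 0 lower in the blocked fit (46.7% higher), and without the block only grhl1, a grainyhead-like transcription factor gene, reached that p, with an estimate of 0.20. Jam2b, pkp2 and grhl1 are named because they were the single genes counted, after their values were seen. Of 15 other intermediate filament genes, 0 were higher and 1 was lower in the blocked fit.

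Epcam, the gene of an adhesion protein that binds claudin-7 in mammals, is given because of cldn7b and was also chosen after its value was seen. Its level was 252 ± 37.4 CPM among controls against 287 ± 51.4 CPM among mutants (SD, n = 5 each), higher in 5 of 5 pairs. The blocked estimate was 0.18, at an adjusted edgeR p of 0.102. The basal layer regulator tp63 had 84.6 ± 4.70 CPM among controls and 90.6 ± 10.6 CPM among mutants (SD, n = 5 each).

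Markers of the skin's cell types, the hatching gland and the gut gave these values beside the claudins. The part of these markers in the claudin values was not tested. Of 10 ionocyte markers tested, 5 were higher and 0 lower at an unadjusted edgeR p under 0.05 in the blocked fit, where 5.67% of all genes were higher and 4.84% lower, and the median log2 estimate without the block was 0.16. All 11 in the table had some count, though rhcgb was too low to be tested (means of 0.084 CPM among controls and 0.013 CPM among mutants). The 11 summed to 192 to 229 FPKM among controls and 195 to 243 FPKM among mutants. The 7 hatching gland markers had a median of 0.21, with 4 higher and 0 lower. They include the symbol ctslb under separate gene entries, with unadjusted blocked edgeR p-values of 0.00464 and 0.0531. Only the first of these was counted as higher. For the 10 periderm markers that are no members the median was 0.089, with 4 higher and 0 lower, and their summed level was higher in the mutant of only 1 of 5 pairs. Most of that sum came from icn and icn2, at 1895 and 653 FPKM on average, which had estimates of -0.24 and -0.26, while the other 8 were above 0. The 10 basal epidermis markers other than cldni, all detected, had a median of 0.010, with 0 higher and 0 lower. They summed to 529 to 785 FPKM among controls and 581 to 819.6 FPKM among mutants, mostly from krtt1c19e. Of 8 gut markers tested that are no claudins, 3 were higher and 0 lower. Of 9 notochord markers, 3 were higher and 1 lower, and of 12 ear and lateral line markers 0 were higher and 0 lower. Without claudins, 1 of 8 endothelial markers was higher and 0 lower, and of 6 glial markers 0 were higher and 0 lower. No marker of these lists was called in either edgeR fit. The lists share genes, so their counts are not separate. Among the higher genes, klf17 stood in both the epidermal regulator and hatching gland lists, and foxi3a in both the regulator and ionocyte lists. Evpla stood in both the desmosome and periderm lists. These genes are named only for that overlap, after their values were seen.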

How the data were processed

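Polyadenylated RNA of pools of whole embryos was sequenced paired-end from strand-specific libraries, per the labels' protocols. The authors deposited, for each gene and library, an expected count, which can be a fraction of a read, and log2(FPKM + 0.1). Per the submitters' processing notes, the tools named are BWA 0.7.12-r1039, bedtools 2.25.0.64, STAR 2.5.3a and RSEM 1.3.0 and the build is GRCz10; not given in the sources used here are what each did, the annotation release and whether counting used the strand. Values over 1e-06 from a whole number made up 17.8 to 21.6% of the expected counts per library, so reads were divided between genes, and counts of near-identical or overlapping genes are uncertain. FPKM values here undo that logarithm. They stayed above 0 even where a count was 0. Krt95, at 0 counts in 6 libraries, had a lowest FPKM of 0.11, and cldnd, at 0 counts in 2, had 0.05. The reason was not tested, and FPKM values this low are uncertain.

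Rounded expected counts went into edgeR 4.0.16 (R 4.3.3): filterByExpr kept 20802 genes, TMM factors scaled the libraries, and its two-sided robust quasi-likelihood test set mutants against controls, with Benjamini-Hochberg adjustment over all tested genes and a threshold of 0.05. CPM use the TMM factors. SE is the log2 fold change over the square root of its F statistic. The blocked fit adds the replicate number, with which the common biological coefficient of variation was 6.94%, against 17.6% without it. Numbers were read as pairs because same-numbered libraries correlated at 0.543 to 0.598 in deviations from their group means, in 5 of 5 pairs, against -0.466 to 0.508 between different numbers. A further test took the replicate number as the effect. Alternatives were DESeq2 1.42.0, limma-trend (limma 3.58.1) on FPKM with a pseudocount of 1 or 0.1, RLE scaling, no filter, and leaving out libraries or numbers. Exact permutation tests over 252 assignments ignore the replicate numbers and allow no p below 0.00794. Their p-values were not adjusted over genes. The tests were checked on simulated data with planted changes larger than that of any member, so the check does not cover changes as small as those reported here.

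The members and gene lists were chosen with earlier results of these data known. Named are the 10 keratins and 12 claudins of highest mean FPKM, members with an unadjusted edgeR p under 0.05 without the block or an adjusted one with it (at most 8), and krt8, krt18, krt15, cldn5a, cldn5b, cldn15la, cldnk and cldn19 as tissue examples; others are marked where they are named or stand in counts. Gene order comes from GRCz12tu, a build other than the files', so no coordinates are given. No sequences were used.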

Additional observations from a re-analysis of the deposited data

Results flagged for a closer look

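Among 58 groups of 5 libraries, 3 had 1 library far from the other 4, and chance alone gives about 1 in 20. Krt92 was at 68.2 CPM in control 6, against 114 to 128 CPM in the other controls. It was at 72.4 CPM in mutant 6, against 125 to 144 CPM in the other mutants, so the same replicate number stood apart in both groups. Cldnd1b was at 17.2 CPM in control 2, against 21.9 to 23.8 CPM in the other controls.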

How the results depend on the processing

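Pairing by replicate number, the replicate block gave 53 genes called over the whole table, 11 claudins and 2 keratins with an unadjusted edgeR p under 0.05, and changed no call of a member. DESeq2 called 6 genes, limma-trend 2 with a pseudocount of 1 and 0 with 0.1, none of them members. RLE scaling and no filter left these counts as they were. With 1 library left out of the unblocked fit, the genes called ranged from 0 to 3, and keratins with an unadjusted p under 0.05 from 0 to 1 and claudins from 0 to 8, both highest without mutant 4, with 0 claudins without control 4 or mutant 2. With the block and number 1, 2, 3, 4 or 6 left out in turn, the genes called were 17, 17, 21, 365 and 79, keratins called 0, 0, 0, 1 and 0 and claudins called 0, 0, 0, 5 and 0. Keratins with an unadjusted p under 0.05 were then 3, 1, 2, 5 and 3, and claudins 6, 6, 8, 11 and 7.

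Of 567 single-gene estimates, for 27 genes under 21 settings, 523 kept their sign and side of the threshold, 38 changed sign and 6 passed the threshold, all 6 in the blocked fit without number 4. In limma-trend the estimate of krt4 was 0.00100 with a pseudocount of 1 and 0.00100 with 0.1, and that of cldnd1b 0.00537 and 0.00562, against values just below 0 in edgeR. With 1 library left out of the unblocked fit, log2 estimates that changed sign ranged from -0.10 to 0.060 for krt4, -0.12 to 0.057 for cyt1, -0.020 to 0.15 for cyt1l, -0.013 to 0.092 for krt5, -0.11 to 0.075 for krt17, -0.050 to 0.21 for krt91, -0.031 to 0.24 for krt92 and -0.13 to 0.34 for krt1-19d. They ranged from -0.025 to 0.24 for cldn1, -0.10 to 0.011 for cldn12 and -0.081 to 0.050 for cldnd1b. With the block and number 1, 2, 3, 4 or 6 left out, they were -0.042, -0.053, -0.033, 0.0056 and 0.036 for krt4, -0.048, -0.079, -0.059, 0.013 and 0.00080 for cyt1, -0.069, -0.059, -0.035, 0.029 and -0.032 for krt17, 0.0040, -0.024, 0.0045, -0.052 and 0.0028 for cldnd1b and -0.074, 0.0095, -0.053, -0.11 and -0.10 for cldn19. The cause was not tested. The other 15 genes kept their sign in every setting, but not their size: without mutant 2 the unblocked estimates were 0.0059 for cldni, 0.070 for cldnb, 0.071 for cldn7b, 0.085 for cldne, 0.11 for cldnh, 0.10 for krt97, 0.023 for krt8 and -0.086 for cldn5a, without mutant 4 that of cldn5b 0.084, without mutant 6 that of krt15 0.047, without mutant 3 that of krt18 0.014 and without control 1 that of cldn15la 0.24. Keratins and claudins that differed between replicate numbers stayed at 11 to 12 and 11 to 15. Depth limits cldnj, cldnk and cldn15la, with fewer than 100 counts a library.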

Other observations

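Besides the members, 12 genes of the table carry other symbols but are named as keratins or claudins in GRCz12tu. Krtt1c19e, named krt1-19e there, was at 539 FPKM on average, between krt5 and krt8, with a log2 estimate of 0.065 for mutants over controls. The gene krt99, as it is named there, was at 3.79 FPKM with an estimate of 0.40 (edgeR p before adjustment 0.0879). The genes named cldn8.2 and cldn23.1 there were at 14.1 and 16.4 FPKM, with estimates of 0.11 and 0.079. None of the 12 was called by edgeR with or without the block.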
